A study of Rattus norvegicus with 8 samples.

Results

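The 10 genes described here encode the granule cargo of neutrophils and calprotectin, an abundant protein of their cytosol: S100a8, S100a9, Fcnb, Ngp, Np4, Camp, Mpo, Elane, Lcn2 and Ltf. They were taken as a named list from a table of raw counts with 17337 genes. All 10 have a row there, 9 have counts in the libraries used, and the same 9 passed the expression filter with which 10472 genes were tested. Ltf, the gene of the iron-binding granule protein lactoferrin, had 0 counts in each of the 8 libraries. The annotation used for counting is not given in the sources used here, so it is not known how much of the Ltf transcript could be counted.

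RNA was sequenced from periodontal ligament (PDL), the connective tissue that ties the tooth root to bone, captured by laser micro-dissection from the cervical region of the teeth of untreated rats. The 4 P28 libraries come from rats of 28 days and the 4 P18 libraries from rats of 18 days, with 4 animals per age according to the labels, and the series sets the 2 ages against each other because the teeth come into occlusal contact between them. No strain, sex, allele or agent is given in the labels, and nothing is given of the blood or marrow that a capture may carry along. Each library was taken as 1 animal.

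Neutrophils are made in the bone marrow, and their granules are filled in steps: the genes of azurophil (primary) granules, such as Mpo and Elane, are transcribed first, and those of specific (secondary) granules, such as Ltf, Camp, Ngp and Lcn2, later, when C/EBP-epsilon is active. Mature neutrophils keep the proteins and transcribe these genes little, whereas S100a8 and S100a9 stay highly transcribed. Bone marrow lies close to the ligament in the alveolar bone of the jaw, and neutrophils patrol the gum margin next to cervical PDL. In bulk RNA of this kind, fewer cells of a type and less RNA per cell cannot be told apart.

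Total counts per library ran from 5252693 to 17803006 at P28 and from 10863769 to 26645656 at P18. Levels are in CPM, read counts scaled to a common library size. The limit set by 0 counts (3 counts) was 0.624 CPM in P28 replicate 4, the shallowest library, and 0.108 CPM in P18 replicate 2, the deepest. The ligament genes Postn, Col1a1 and Col3a1 were high in every library. Tnmd and Scx had counts in every library, while Aspn, another marker gene of the ligament, had 4 counts over all 8. P28 replicate 4 also had the fewest genes with a count, 10063 against 10920 to 11661 in the other 7.

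Of the 9 tested members, 8 had a negative log2 fold change (P28 over P18), as did 49.7% of all genes tested, but 0 of the 9 were called lower or higher (edgeR quasi-likelihood test, Benjamini-Hochberg adjusted p under 0.05 over all 10472 genes). Over all genes tested, 0.420% were called lower and 0.516% higher, 0.936% in all. An unadjusted p under 0.05 was found for 3 members, all with negative log2 fold changes (Fcnb, Ngp and S100a8), where 7.10% of all genes had such a p and a lower level and 7.45% such a p and a higher one. DESeq2's Wald test called 2 members lower, Fcnb and Ngp, against 2.52% of the genes it tested, and limma with voom and quality weights called 0 against 1.26%. The median log2 fold change of the 9 members was -1.95, and that of all genes tested was 0.01. In 8 of the 9 members, all but Lcn2, the 3 highest libraries were P18 replicates 1, 2 and 4. At least 3 P18 libraries lay above every P28 library in 14.0% of the genes tested.

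The single libraries differed widely within an age. P18 replicate 3 was the lowest of the P18 libraries in all 9 members, as it was in 23.8% of all genes tested. It lay inside the range of the P28 libraries in 8 of the 9. The share of all genes for which this held was not computed, so that count says nothing particular of the members. P28 replicate 4 was the lowest of all 8 libraries in 7 members, as it was in 23.6% of all genes tested, and the lowest of the P28 libraries in the same 7 (35.9% of all genes). The median SD of log2 CPM over the members was 1.59 at P28 and 1.82 at P18. Over all genes tested, which were not matched to the members in level, it was 0.69 at P28 and 0.53 at P18. At P28, 0.449% (for Lcn2) to 29.2% (for Ngp) of all genes tested had a larger SD than the member. At P18 this share ran from 6.43% (for Ngp) to 22.4% (for Mpo). Summed over the 10 genes, the level was 321, 94.1, 238 and 26.2 CPM in P28 replicates 1 to 4, and 706, 1130, 59.7 and 754 CPM in P18 replicates 1 to 4. The mean was 170 ± 134 CPM at P28 and 662 ± 444 CPM at P18 (SD, n = 4 each). The members together held from 0.00240% (P28 replicate 4; 95% Wilson interval 0.00202% to 0.00286%, counting error only) to 0.118% (P18 replicate 2; 0.117% to 0.119%) of the counts of a library.

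**Figure D1:**
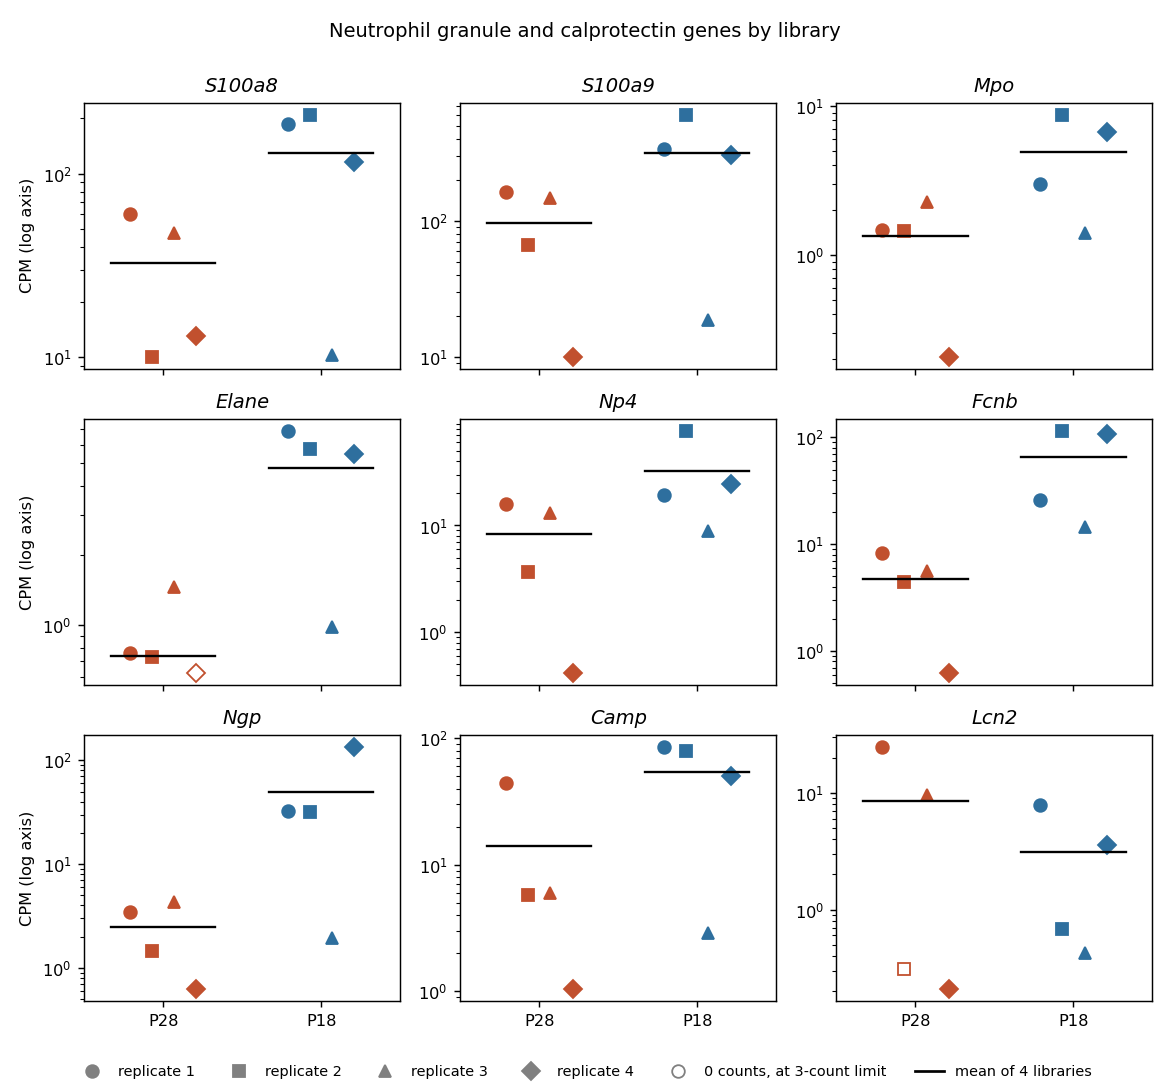
CPM of the 9 detected genes (log axis) in the 4 P28 and the 4 P18 libraries, with a symbol per replicate number and a line at the mean; open symbols are counts of 0, drawn at the limit of 3 counts. P18 replicate 3 is the lowest P18 library in every panel, and Fcnb is the one gene whose ages do not overlap.

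The subunits of calprotectin come from neighbouring genes, S100a8 and S100a9, with 0 protein-coding genes between them in the RefSeq annotation. S100A8 and S100A9 are small calcium-binding proteins that pair, withhold zinc and manganese from microbes and signal through TLR4. S100a8 was at 60.1, 10.1, 47.6 and 13.1 CPM in P28 replicates 1 to 4, and at 186, 209, 10.3 and 116 CPM in P18 replicates 1 to 4. The ages overlap through P18 replicate 3, which was as low as P28 replicate 2. The means were 32.7 ± 24.9 CPM at P28 and 130 ± 89.3 CPM at P18, with a log2 fold change of -1.98 ± 0.76 (SE; adjusted p = 0.246, edgeR).

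S100a9 was at 162, 66.5, 148 and 9.98 CPM in P28 replicates 1 to 4, and at 339, 604, 18.5 and 308 CPM in P18 replicates 1 to 4. P18 replicate 2 was highest and P18 replicate 3, the lowest P18 library, lay below 3 of the P28 libraries. The log2 fold change was -1.71 ± 0.84 (adjusted p = 0.383, edgeR). Keratinocytes can also transcribe both genes. P28 replicate 2 had by far the most epithelial RNA, with Krt14 at 2494 CPM, and was the lowest of the P28 libraries in S100a8 and the third in S100a9. The part of epithelial RNA in the level of either gene was not tested.

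The S100a9 to S100a8 count ratio was not constant. It was 2.70, 6.60, 3.12 and 0.762 in P28 replicates 1 to 4, and 1.82, 2.90, 1.79 and 2.65 in P18 replicates 1 to 4. The exact 95% counting intervals of P28 replicate 2 (5.32 to 8.26) and P28 replicate 4 (0.512 to 1.13) lay outside the range of the other 6 libraries. P28 replicate 4 rests on 48 counts of S100a9 and 63 of S100a8.

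The azurophil granule members are Mpo, whose peroxidase makes hypochlorous acid, Elane, which encodes neutrophil elastase, and Np4, a rat alpha-defensin gene. Mpo was at 1.47, 1.46, 2.28 and 0.208 CPM in P28 replicates 1 to 4, and at 2.98, 8.71, 1.41 and 6.66 CPM in P18 replicates 1 to 4. Elane was at 0.762, 0.728, 1.46 and 0 CPM in P28 replicates 1 to 4, and at 6.86, 5.76, 0.980 and 5.49 CPM in P18 replicates 1 to 4. In both genes P18 replicates 1, 2 and 4 lay above every P28 library, and P18 replicate 3 lay among the P28 libraries. Counts were low, at most 28 per P28 library for Mpo and 18 for Elane. The log2 fold changes were -1.85 ± 1.17 for Mpo (adjusted p = 0.514, edgeR) and -2.65 ± 1.33 for Elane (adjusted p = 0.393, edgeR).

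Np4 was at 16.0, 3.64, 13.01 and 0.416 CPM in P28 replicates 1 to 4, and at 19.3, 76.4, 8.82 and 24.2 CPM in P18 replicates 1 to 4. P18 replicate 2 was the highest library, and P28 replicates 1 and 3 came close to P18 replicate 1. The log2 fold change was -1.95 ± 0.92 (adjusted p = 0.359, edgeR), and -1.08 without P18 replicate 2. Np4 lies in a cluster of alpha-defensin genes, with Defa9 and Defa11 as neighbours in the RefSeq annotation. Reads that match several such copies may be lost or counted for another copy, so the Np4 level is uncertain. Its paralog RatNP-3b was at 22.3, 10.2, 11.5 and 1.25 CPM in P28 replicates 1 to 4 and at 20.1, 92.1, 8.10 and 18.7 CPM in P18 replicates 1 to 4. Both genes were highest in P18 replicate 2 and lowest in P28 replicate 4.

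The specific granule members with the largest negative log2 fold changes were Fcnb and Ngp. Fcnb encodes ficolin B, which in rodents recognises microbial sugars and starts the lectin pathway of complement. Fcnb was at 8.27, 4.47, 5.61 and 0.624 CPM in P28 replicates 1 to 4, and at 26.1, 114, 14.5 and 107 CPM in P18 replicates 1 to 4. Every P28 library lay below every P18 library, P18 replicate 3 included. That held for 1 of the 9 members and for 5.58% of all genes tested, while the reverse, every P28 library above, held for 0 members and 4.89%. The mean was 4.74 ± 3.17 CPM at P28 and 65.4 ± 52.4 CPM at P18, 13.8-fold higher at P18. The log2 fold change of -3.75 ± 0.80 did not pass the threshold (adjusted p = 0.0521, edgeR). It passed without P28 replicate 4 (adjusted p = 0.0480; 0.970% of genes were called lower in that fit) and without the expression filter (0.0315; 0.373%), and it did not pass in the other 7 fits that left out 1 library (adjusted p up to 0.179).

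Ngp encodes a cystatin-related protein known from specific granules of the mouse. Ngp was at 3.46, 1.46, 4.31 and 0.624 CPM in P28 replicates 1 to 4, and at 32.5, 31.8, 1.96 and 133 CPM in P18 replicates 1 to 4. P18 replicates 1, 2 and 4 lay well above all P28 libraries, while P18 replicate 3 lay among them. The log2 fold change was -4.29 ± 1.03 (adjusted p = 0.0773, edgeR). It passed without P18 replicate 3 (adjusted p = 0.0486, where 0.103% of genes were called lower) and was -3.14 without P18 replicate 4, the library with the most Ngp counts (adjusted p = 0.270, edgeR).

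Camp encodes the cathelicidin precursor, from which an antimicrobial peptide is cut. Camp was at 43.9, 5.72, 5.94 and 1.04 CPM in P28 replicates 1 to 4, and at 84.7, 79.2, 2.90 and 49.96 CPM in P18 replicates 1 to 4. P28 replicate 1 stood far above the other P28 libraries and near P18 replicate 4. The log2 fold change was -1.92 ± 1.02 (adjusted p = 0.427, edgeR), and -3.64 (adjusted p = 0.177) without P28 replicate 1.

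Lcn2, which encodes the siderophore-binding lipocalin of specific granules and is also transcribed in other cell types, had the one positive log2 fold change. Lcn2 was at 24.6, 0, 9.67 and 0.208 CPM in P28 replicates 1 to 4, and at 7.85, 0.684, 0.426 and 3.61 CPM in P18 replicates 1 to 4. The ages overlap, since P28 replicates 1 and 3 held the highest levels and P28 replicates 2 and 4 the lowest; the 0 of P28 replicate 2 allows up to 0.312 CPM. The log2 fold change was 1.47 ± 1.61 (adjusted p = 0.728, edgeR), 0.09 without P28 replicate 1 and 2.46 without P18 replicate 1. P28 replicates 1 and 3 were also the libraries with the most Mmp9, a gelatinase of neutrophil granules and of osteoclasts, at 333 and 447 CPM, against 14.8 and 18.7 CPM in P28 replicates 2 and 4, and the most of the osteoclast phosphatase gene Acp5, at 1553 and 2624 CPM. At P18 replicate 1 had the most Lcn2 but the least Mmp9 of all libraries (1.26 CPM), and replicate 4 had the most Mmp9 of the P18 libraries (25.7 CPM). Acp5 was highest of the P18 libraries in replicate 1 (131 CPM). The part of neutrophils and osteoclasts in the Lcn2 level was not tested.

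**Figure D2:**
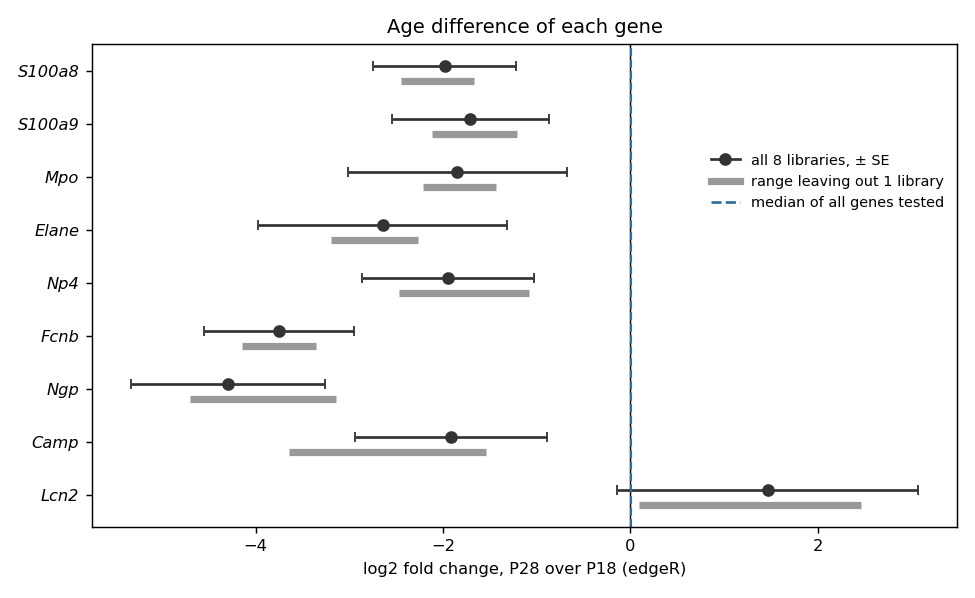
Log2 fold change (P28 over P18) of the 9 tested genes with SE (points and bars), the range over the 8 fits that left out 1 library (grey), and the median of all genes tested (dashed, 0.01). The 8 members other than Lcn2 lie below 0 in every fit drawn, and Fcnb and Ngp lie lowest at -3.75 and -4.29.

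The genes did not keep 1 ratio among themselves, as set out here by the share of each gene in the counts of the list within a library; shares of counts are not corrected for transcript length and are compared between libraries only. Fcnb took 2.58%, 4.75%, 2.36% and 2.38% of these counts in P28 replicates 1 to 4, and 3.70%, 10.1%, 24.2% and 14.2% in P18 replicates 1 to 4. Ngp took 1.08%, 1.55%, 1.81% and 2.38% in P28 replicates 1 to 4, and 4.602%, 2.82%, 3.28% and 17.7% in P18 replicates 1 to 4. Its P28 shares all lay below its P18 shares, but that of P28 replicate 4 rests on 3 Ngp counts. Per S100a9 count, Ngp overlapped between the ages, at 0.0625 in P28 replicate 4 and 0.0527 in P18 replicate 2. P18 replicate 3, low in every member, had the largest shares of Fcnb, Np4 (14.8%), Mpo (2.36%) and Elane (1.64%), and the smallest share of calprotectin (48.2%, where the other 7 libraries had 56.2% to 88.1%). Lcn2 took 7.66% and 4.06% in P28 replicates 1 and 3 and at most 1.11% in each of the other 6 libraries.

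Per S100a9 count, a ratio that no library scaling can shift, Fcnb stood at 0.0510, 0.0672, 0.0379 and 0.0625 in P28 replicates 1 to 4, and at 0.0769, 0.189, 0.783 and 0.348 in P18 replicates 1 to 4. These did not overlap between the ages, although the intervals of P28 replicates 2 and 4 (0.0482 to 0.0916 and 0.0125 to 0.194) reach that of P18 replicate 1 (0.0680 to 0.0867). Of 10 such ratios between members, 2 did not overlap between the ages, the other being Elane per Mpo, which rests on few counts. Camp per Ngp ran from 1.38 to 12.7 at P28 and from 0.375 to 2.61 at P18. These specific granule genes, with 9 protein-coding genes between them in the RefSeq annotation, also differed in their ratio between libraries of 1 age.

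**Figure D3:**
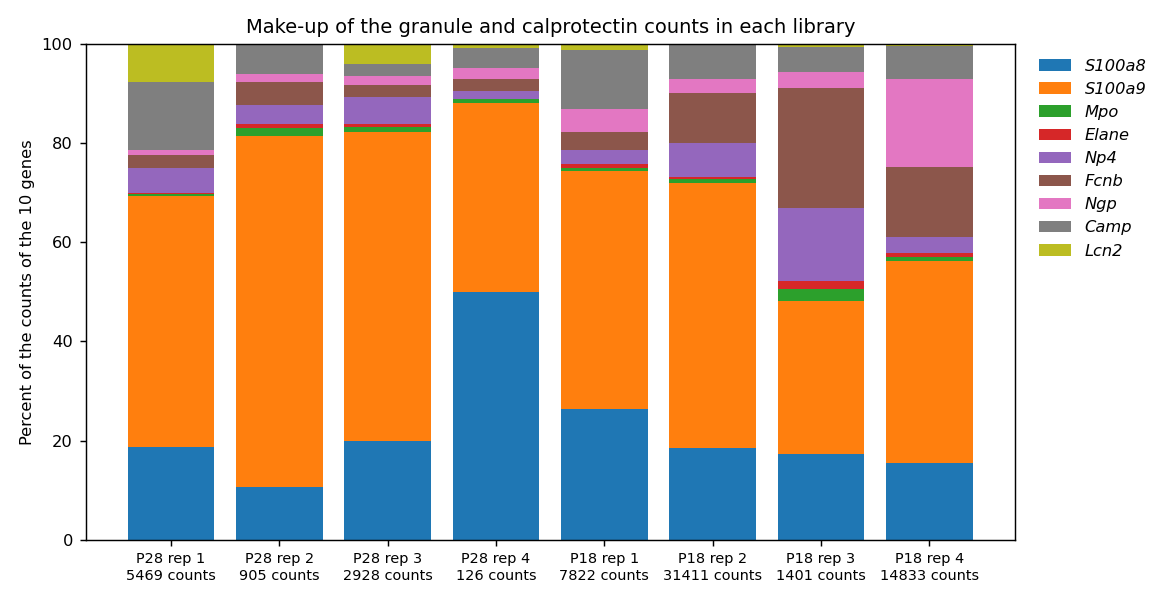
Percent of the counts of the 10 genes that each gene held in each library (stacked bars, P28 left of P18; the summed count stands under each bar, and Ltf is at 0). Ngp holds a larger share in every P18 bar than in any P28 bar, though its share in P28 replicate 4 rests on 3 counts. P18 replicate 3 has the smallest calprotectin share (48.2%).

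Promoter windows, from 250 bases before to 50 after the annotated start, are given by RefSeq (assembly GRCr8) for 8 members, all but S100a8 and Elane. They are shown for the pair with the largest negative log2 fold changes (Fcnb, Ngp), the gene with the opposite sign (Lcn2) and a calprotectin gene (S100a9). Capitals mark matches to a C/EBP motif (TTGCNNAA or its reverse complement TTNNGCAA, both strands) and, in S100a9, to a TATA box (TATAAA, given strand only); no marked match overlaps another.
Fcnb, chr3:31800139-31800438, minus strand: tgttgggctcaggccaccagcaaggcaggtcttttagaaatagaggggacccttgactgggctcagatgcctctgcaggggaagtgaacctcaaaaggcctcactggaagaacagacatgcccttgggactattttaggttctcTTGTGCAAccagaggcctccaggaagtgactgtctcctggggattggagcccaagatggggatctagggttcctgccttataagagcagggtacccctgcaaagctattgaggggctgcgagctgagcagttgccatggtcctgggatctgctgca
Ngp, chr8:119272355-119272654, plus strand: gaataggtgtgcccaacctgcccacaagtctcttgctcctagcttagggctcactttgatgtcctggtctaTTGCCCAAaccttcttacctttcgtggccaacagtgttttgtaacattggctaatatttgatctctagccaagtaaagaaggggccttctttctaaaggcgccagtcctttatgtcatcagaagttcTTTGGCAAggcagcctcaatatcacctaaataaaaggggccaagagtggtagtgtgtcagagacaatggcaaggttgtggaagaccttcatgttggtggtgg
Lcn2, chr3:36081731-36082030, minus strand: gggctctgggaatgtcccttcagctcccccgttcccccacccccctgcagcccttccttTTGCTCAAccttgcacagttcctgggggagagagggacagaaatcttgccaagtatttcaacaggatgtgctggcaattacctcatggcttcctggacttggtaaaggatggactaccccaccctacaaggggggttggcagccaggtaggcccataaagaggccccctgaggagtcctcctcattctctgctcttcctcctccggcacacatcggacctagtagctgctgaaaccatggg
S100a9, chr2:178490573-178490872, minus strand: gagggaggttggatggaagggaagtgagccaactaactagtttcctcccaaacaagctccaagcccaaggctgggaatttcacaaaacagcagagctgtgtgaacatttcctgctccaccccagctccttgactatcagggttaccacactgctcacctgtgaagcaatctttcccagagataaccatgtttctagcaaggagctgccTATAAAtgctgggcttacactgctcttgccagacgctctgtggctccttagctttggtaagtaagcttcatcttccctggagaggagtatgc
The C/EBP motif was found in 4 of the 8 windows, once each in Fcnb, Np4 and Lcn2 and at 2 places in Ngp, and in 10.6% of all 33469 rat promoter windows of this length. In Fcnb it lies from -106 to -99 and in Lcn2 from -191 to -184, counted from 0 at the annotated start. The TATA box letters were found in 1 of the 8 windows (8.80% of all windows), and the letters GAGGAAGT, a PU.1-type motif, in 0 of the 8 on either strand (2.42% of all windows). Matches are descriptions of these letters only, and Lcn2, which had the opposite sign, holds a match as Fcnb and Ngp do.

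Among the other genes of azurophil granules, 7 of 17 were tested, with 5 log2 fold changes below 0 and 2 above, a median of -1.44, and 1 called lower and 0 higher. The called gene was Ctsc, which encodes the cathepsin that activates elastase and related granule proteases. It was at 54.6, 112, 55.0 and 93.1 CPM in P28 replicates 1 to 4, and at 202, 151, 225 and 275 CPM in P18 replicates 1 to 4 (log2 fold change -1.44 ± 0.29, adjusted p = 0.0408, edgeR). The call held without P28 replicate 2 or 4 but not in the other 6 fits that left out 1 library (adjusted p up to 0.127). Unlike the members, Ctsc was not low in P18 replicate 3; it is transcribed in many cell types. Ctsg (cathepsin G), RatNP-3b and Defa5 had log2 fold changes of -1.98 ± 1.25, -1.61 ± 0.85 and -1.53 ± 1.05 (adjusted p = 0.512, 0.423 and 0.551, edgeR). Bpi, a granule protein that binds bacterial lipopolysaccharide, had 0 counts in all 8 libraries, as did Ltf.

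Of 13 other genes of specific and gelatinase granules, 12 were in the table and 8 tested, with 4 log2 fold changes on each side of 0, a median of -0.03, and 0 called (2 at an unadjusted p under 0.05 in each direction). Mmp9 had a log2 fold change of 4.40 ± 1.198, the chitinase-like gene Chi3l1 of -4.12 ± 1.16, the oxidase subunit gene Cyba of 0.76 ± 0.29 and the haptoglobin gene Hp of -1.71 ± 0.78 (adjusted p = 0.107, 0.117, 0.247 and 0.339, edgeR). Of 10 other cytosolic neutrophil genes, 8 were in the table and 5 tested, with 0 called (1 at an unadjusted p under 0.05, lower), and the actin-binding gene Coro1a had 36.9, 14.0, 45.0 and 20.6 CPM in P28 replicates 1 to 4, against 62.2, 126, 60.2 and 102 CPM in P18 replicates 1 to 4 (log2 fold change -1.58 ± 0.41, adjusted p = 0.0937, edgeR). Of 6 genes of the NADPH oxidase, which makes superoxide, 5 were tested, with 3 log2 fold changes below 0, 2 above and 0 called (1 at an unadjusted p under 0.05, higher).

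Most genes of the neutrophil surface list did not pass the expression filter. The list summed to 27.9 to 111 CPM at P28 and 43.9 to 63.2 CPM at P18. Of 16 such genes, 14 were in the table and 6 tested, with 3 log2 fold changes below 0 and 3 above and 0 called (0 also at an unadjusted p under 0.05). Csf3r, the receptor of the granulocyte growth factor G-CSF, was at 2.23, 7.59, 0.244 and 0.208 CPM in P28 replicates 1 to 4, and at 14.3, 13.2, 0.0853 and 2.74 CPM in P18 replicates 1 to 4 (log2 fold change -1.55 ± 1.49, adjusted p = 0.688, edgeR). Among the P18 libraries Csf3r was lowest in replicate 3, as the members were, and that library was its lowest of all 8. Il1r2 was also lowest of the P18 libraries there, at 0 CPM. The other tested genes of this list were not. C5ar1 was highest of all 8 libraries in P18 replicate 3, at 27.0 CPM. Itgb2, Selplg and Clec7a were highest of all 8 in P28 replicate 4, at 37.6, 34.5 and 21.2 CPM. Cxcr2, the chemokine receptor of mature neutrophils, was at 5.14 CPM in P18 replicate 2 and had 0 counts in 6 libraries, and Itgam, which encodes CD11b, had 7 counts over all 8 libraries.

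Of 10 granulocyte transcription factor genes, 8 were tested, with 3 log2 fold changes below 0, 5 above and 0 called (1 at an unadjusted p under 0.05, Cebpd). Cebpe, which encodes C/EBP-epsilon, was at 0, 1.66, 0 and 0 CPM in P28 replicates 1 to 4, and at 1.35, 2.91, 0 and 2.03 CPM in P18 replicates 1 to 4. Cebpe had few counts, 152 over the libraries. They lay in P28 replicate 2 and in the same 3 P18 libraries in which the members were high. In P18 replicate 3 its 0 counts allow up to 0.128 CPM (log2 fold change -1.89 ± 1.96, adjusted p = 0.712, edgeR). Spi1 and Lyl1 were also lowest of the P18 libraries there (13.4 and 1.07 CPM). Cebpb was highest of them there (73.7 CPM), and Runx1 was higher there (22.2 CPM) than in P18 replicates 2 and 4 (9.28 and 14.7 CPM). Cebpd, Runx1 and Cebpb had log2 fold changes of -0.81 ± 0.28, -1.70 ± 0.81 and 0.44 ± 0.36 (adjusted p = 0.191, 0.365 and 0.630, edgeR).

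Signals that draw neutrophils gave few counts, apart from Cxcl12 (44.6 to 121 CPM at P28 and 44.8 to 122 CPM at P18). Of 14 chemoattractant and growth factor genes, 6 had 0 counts in all libraries and 4 were tested, all with log2 fold changes above 0 and 0 called (1 at an unadjusted p under 0.05). DESeq2's Wald test called genes in some lists where edgeR called 0: Chi3l1, Coro1a and Cd79b lower and Mmp9, Cxcl1 and the complement gene C1qa higher. Limma with voom called Cebpd lower. Cxcl1, a chemokine that attracts neutrophils through CXCR2, was at 1.06, 5.72, 0.976 and 0.831 CPM in P28 replicates 1 to 4 and had 0 counts in all P18 libraries. Its 89 counts at P28 make it at least 55.6-fold higher there than the limit of 3 counts over the P18 group allows (at least 27.2-fold without P28 replicate 2, which holds 55 of these counts), with an edgeR adjusted p of 0.103. Il1b, Ccl3 and Cxcl12 had log2 fold changes of 2.24 ± 1.94, 0.98 ± 1.77 and 0.05 ± 0.37.

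Of 15 genes for receptors and partners of the granule proteins and calprotectin, 10 were tested, with 5 log2 fold changes on each side of 0 and 0 called (0 also at an unadjusted p under 0.05). Tlr4, a receptor of calprotectin, was below the expression filter, with 3.28, 3.22, 0.407 and 0 CPM in P28 replicates 1 to 4 and 0 counts in all P18 libraries. Its level at P28 was at least 57.4-fold higher than the limit of 3 counts over the P18 group, with no test, and at least 36.8-fold higher without P28 replicate 1. Lrp1, a receptor of lactoferrin, had a log2 fold change of 0.89 ± 0.46 (adjusted p = 0.405, edgeR), and Lrp2, a receptor of the Lcn2 protein, had 0 counts in all libraries.

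Of 12 genes for inhibitors of granule and lysosomal proteases, 9 were tested, with 2 log2 fold changes below 0 and 7 above, and 1 was called higher and 0 lower. The called gene was Cst3, which encodes the secreted cathepsin inhibitor cystatin C. It was at 4490, 2990, 6054 and 4754 CPM in P28 replicates 1 to 4 and at 1689, 1407, 1722 and 1405 CPM in P18 replicates 1 to 4 (log2 fold change 1.56 ± 0.22, adjusted p = 0.0101, edgeR). The call was lost without P18 replicate 2 (adjusted p = 0.0610). Serpinb9, Serpinb6 and Wfdc2 had log2 fold changes of -1.21 ± 0.40, 0.81 ± 0.36 and 0.88 ± 0.41 (adjusted p = 0.173, 0.322 and 0.349, edgeR).

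**Figure D4:**
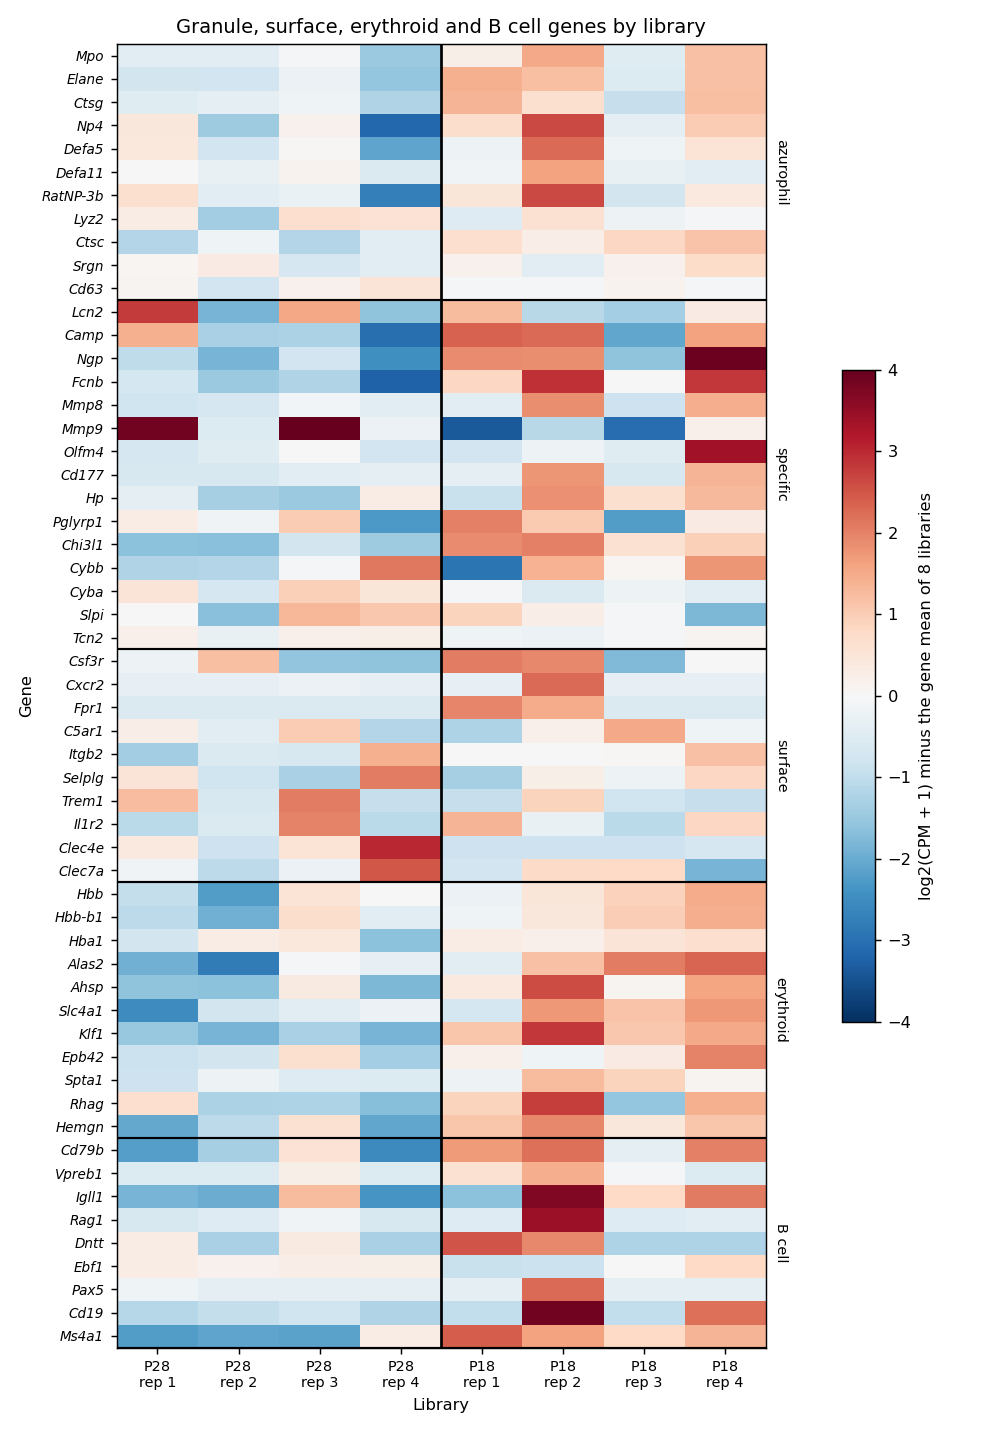
Log2(CPM + 1) minus the mean of each gene over the 8 libraries, for 56 genes with at least 100 counts in all (azurophil, specific granule, surface, erythroid and B cell genes from top to bottom; P28 left of P18). Fcnb, Ngp, Camp, Mpo, Elane and Np4 are higher in P18 replicates 1, 2 and 4 than in P18 replicate 3. That library was also the lowest at P18 in 4 of the 10 tested erythroid genes (Ahsp, Klf1, Rhag and Hemgn), and the second highest of all 8 in 4 others (Hbb, Hbb-b1, Hba1 and Alas2).

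Of 13 erythroid genes, 10 were tested, all with log2 fold changes below 0, and 1 was called lower (Klf1, an erythroid transcription factor, with a log2 fold change of -4.99 ± 1.04, adjusted p = 0.0471, edgeR). Of the fits that left out 1 library, Klf1 was called in the 1 without P28 replicate 4 (adjusted p up to 0.220 in the other 7). Limma with voom did not call Klf1 but Alas2, and DESeq2 called both, with Ahsp and Slc4a1. The summed level of the erythroid genes ran from 675 to 4521 CPM at P28 and from 2698 to 8885 CPM at P18, with 0 of the 11 in the table at 0 counts. Hbb (beta-globin) was at 1396, 562, 3901 and 2628 CPM in P28 replicates 1 to 4, and at 2291, 3740, 5101 and 7446 CPM in P18 replicates 1 to 4. P18 replicate 3, the lowest P18 library in every tested member, was the second highest of all 8 libraries in 4 of the 10 tested erythroid genes (Hbb, Hbb-b1, Hba1 and Alas2, the heme synthesis gene of red cell precursors). In 4 others, Ahsp, Klf1, Rhag and Hemgn, it was the lowest P18 library, as in the members. Hba1 rests on only 540 counts over the 8 libraries, against 485341 for Hbb. Alas2, Ahsp and Slc4a1 had log2 fold changes of -2.53 ± 0.65, -2.43 ± 0.66 and -2.14 ± 0.70 (adjusted p = 0.0928, 0.107 and 0.171, edgeR).

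Of 10 B cell and precursor genes, 5 were tested, with 4 log2 fold changes below 0, 1 above and 0 called (2 at an unadjusted p under 0.05, both lower), and a summed level of 43.3 to 75.0 CPM at P28 and 58.9 to 223 CPM at P18. Cd79b, a part of the B cell receptor, was at 1.88, 4.26, 18.7 and 1.25 CPM in P28 replicates 1 to 4, and at 42.2, 60.3, 9.12 and 52.5 CPM in P18 replicates 1 to 4 (log2 fold change -2.64 ± 0.86, adjusted p = 0.172, edgeR). Like the granule genes, Cd79b was high in P18 replicates 1, 2 and 4 and low in P18 replicate 3. Igll1, Dntt and Ebf1 differed from this. Igll1 was at 0.632 CPM in P18 replicate 1 and 7.89 CPM in P18 replicate 3. Dntt was at 0.0426 and 0.0508 CPM in P18 replicates 3 and 4. Ebf1 was higher in P18 replicate 3 (34.0 CPM) than in P18 replicates 1 and 2 (18.0 and 18.2 CPM). Ms4a1, which encodes the B cell protein CD20, was at 0, 0.104, 0.0813 and 4.78 CPM in P28 replicates 1 to 4, and at 24.5, 13.4, 7.16 and 11.2 CPM in P18 replicates 1 to 4. It was called lower without P28 replicate 4 (adjusted p = 0.0241, edgeR) but not with all 8 libraries (adjusted p = 0.308). Of the macrophage genes 8 of 8 were tested, with 7 log2 fold changes above 0, 1 below and 0 called (4 at an unadjusted p under 0.05, all higher), and a summed level of 404 to 1450 CPM at P28 and 363 to 747 CPM at P18. The part of erythroid, B cell and macrophage content in the level of the members was not tested.

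The remaining marker lists held few calls. Of 6 osteoclast genes, 3 were tested, all above 0, with Acp5 called higher by edgeR and DESeq2 but not by voom (log2 fold change 3.67 ± 0.77, adjusted p = 0.0494, edgeR) and a summed level of 1015 to 7721 CPM at P28 and 1447 to 1698 CPM at P18. The Acp5 call held without P28 replicate 2 or 4 but not in the other 6 fits that left out 1 library (adjusted p up to 0.173). With upper-quartile scaling edgeR did not call Acp5 (adjusted p = 0.0517). Nor did edgeR call it with a filter of 10 counts in 4 libraries (adjusted p = 0.0506) or with the replicate block (adjusted p = 0.151). Of 6 epithelial genes, 5 were tested, all above 0 and 0 called (2 at an unadjusted p under 0.05), with a sum of 42.2 to 5405 CPM at P28 and 22.4 to 569 CPM at P18. Mast cell genes (4 of 6 tested), T and NK cell genes (3 of 6) and megakaryocyte genes (1 of 7) had 0 called (0 at an unadjusted p under 0.05), and none of 4 eosinophil and basophil genes passed the filter, with a sum of at most 1.55 CPM. Of 12 cell cycle genes, all were tested, with 10 log2 fold changes below 0, 2 above and 0 called (4 at an unadjusted p under 0.05, all lower), and of 5 tested ligament genes edgeR called 1 lower (Tnmd, also in each of the 8 fits that left out 1 library) and 0 higher. Col3a1 was called higher by DESeq2 (adjusted p = 0.0323) and by edgeR without P28 replicate 2 (adjusted p = 0.0470), but not by edgeR with all 8 libraries (adjusted p = 0.171).

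The genes most like the members across libraries were found by the correlation of log2 CPM with the mean of the standardised log2 CPM of the 9 members, over the same 8 libraries and among 10463 other tested genes, as a description without a test. Among the 10 highest were Rc3h2, Myh10, Ctsg, Slc30a4, Ang, Rhag, Mettl4, Lst1 and Alg5, with Pearson r from 0.90 to 0.941. Ctsg is itself an azurophil granule gene, and Rhag an erythroid membrane gene that was highest in P18 replicate 2 (30.5 CPM) and low in P18 replicate 3 (0.597 CPM). These genes share library, depth and scaling with the members, and 10463 genes were compared over only 8 libraries.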

How the data were processed

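Sequencing counts of 8 cervical PDL libraries (4 at P28, 4 at P18) were analysed. The authors deposited raw counts per gene symbol for 17337 genes. The submitters' processing notes name the build rn6 and the tools HTSeq 0.9.1, STAR 2.5.3a and edgeR 3.16.5, without their roles; annotation and strand setting: not given in the sources used here. A further 40 columns of other samples, and the deposited normalized table, were not used.

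In R 4.3.3, edgeR 4.0.16 was run on all genes (quasi-likelihood test, 2-sided, TMM scaling, age as the only term, edgeR's expression filter with a minimum count of 10), adjusted by Benjamini-Hochberg over the 10472 genes tested. CPM use TMM-scaled library sizes and log2 CPM a prior count of 2. SEs of log2 fold changes were derived from the F statistics. Groups follow the age label, and p-values set the age difference against the spread between these libraries. Alternatives were DESeq2 1.42.0 size factors and Wald test, upper-quartile scaling, limma 3.58.1 with voom, other filters, a replicate block and leaving out each library. The fit was tested on simulated counts. Total counts are given per age in the results.

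Named genes were the 10 members, up to 4 genes with the lowest p of each of the 20 gene lists described (fewer in the last lists), genes needed to report counts of 0, the 10 most correlated genes (1 of them is not reported here), and Hbb. Krt14, Itgam, Cxcr2, C1qa, C5ar1, Il1r2, Spi1, Lyl1 and Ebf1 were named after their values were seen. The members and lists were chosen with earlier results of these data known. Of 201 list genes, 183 matched the count table by symbol and 6 through RefSeq synonyms; 12 were not analysed here. The sequences are from RefSeq (GRCr8); no rn6 coordinates are given. Intervals (95%) and limits of 3 counts cover counting error only.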

Additional observations from a re-analysis of the deposited data

Results flagged for a closer look

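Camp in P28 replicate 1 was at 43.9 CPM, and the nearest other P28 library was at 5.94 CPM. The gap is 0.886 of the range of the 4 P28 libraries, above Dixon's 95% critical value for 4 samples. It was the 1 of 18 groups of 4 libraries looked at (9 genes with counts, 2 ages) to pass that value. Chance passes about 1 in 20 groups if values are normally distributed and groups independent. CPM were used without logs and the groups share libraries, so that rate may not hold here.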

How the results depend on the processing

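The log2 fold changes of the 9 tested members kept their sign and their side of the threshold in 129 of 135 comparisons with 15 alternative settings. In 5, Fcnb or Ngp passed the threshold, and in 1, Lcn2 changed sign (-0.40 with the replicate block). Members called lower numbered 1 without the expression filter and 2 with DESeq2's Wald test, and 0 to 1 leaving out 1 library; 0 were called higher in each setting. Over all genes, 290 were called higher and 262 lower with DESeq2's Wald test, 175 and 132 with voom, and, leaving out 1 library, 4 to 110 higher and 5 to 105 lower, against 54 and 44 with all 8. The median of the members was -2.47 to -1.56 leaving out 1 library. The replicate numbers follow the order of the samples within an age and were not taken as pairs, since the labels give separate animals per age. Deviations of same-numbered libraries from their age means correlated at -0.02 to 0.00, which covers this numbering only. With the replicate block 16 genes were called higher and 10 lower, and 0 members. P28 replicate 4, with the fewest counts, limits Mpo, Elane, Np4 and Lcn2, which have 0 to 2 counts there. It also limits Fcnb and Ngp, which have 3 counts each there.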
